A study of Homo sapiens with 13 samples.

Results

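The clustered protocadherin genes lie side by side on human chromosome 5. The members were the protein-coding genes on that chromosome in GENCODE release 44 on hg19 whose symbol starts with PCDHA, PCDHB or PCDHG followed by A, B, C or a digit. This rule gave 53 of 20176 protein-coding genes: 13 alternate alpha genes (PCDHA1 to PCDHA13), the alpha C-type genes PCDHAC1 and PCDHAC2, 16 beta genes (PCDHB1 to PCDHB16), 12 gamma A genes, 7 gamma B genes and the gamma C-type genes PCDHGC3, PCDHGC4 and PCDHGC5. All 53 are transcribed from the plus strand, and their transcription start sites (TSSs) run from PCDHA1 at position 140165725 to PCDHGC5 at position 140868648. The span from the first to the last annotated base of the members is 726.824 kb long.

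Chromatin came from MDA-MB-231, an established triple-negative breast cancer line of the basal B type, grown under standard conditions with no treatment or genetic change that would set samples apart. ChIP-seq targeted 3 histone marks (H3K4me1, H3K4me3 and H3K27ac), CTCF and Pol II in 2 replicates apiece, and p300/CBP in 1 library for which several immunoprecipitations had been pooled. The replicates had been merged before peaks were called, so each antibody has 1 list of peak positions with no height and no replicate error, and all values below are counts and positions in these 6 lists. The line stands for 1 tumour, and a mark carried by few of its cells and a weaker mark carried by all of them cannot be told apart in such lists.

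Clustered protocadherins are cell-surface adhesion proteins, known above all from neurons, where each cell uses a few of them and so gains an identity of its own. Each variable exon has its own promoter, and in the alpha and gamma clusters the variable exon is spliced to constant exons shared by the whole cluster, whereas beta genes have no shared exons. The choice of promoter is known to involve CTCF, which binds a conserved sequence in most variable promoters and, in alternate alpha genes, a further site inside the variable exon, and cohesin, which brings promoters towards distal enhancers downstream of the constant exons. Unused promoters are known to carry methylated CpGs. H3K4me3 and H3K27ac mark promoters in use, H3K4me1 marks their flanks and enhancers, and p300/CBP are acetyltransferases found at enhancers.

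The promoters share a short motif. The letters GNCGCT, read on the strand of the gene in the 150 bases before the TSS, were found in 46 of 53 members (86.8%) and in 21.3% of all 20176 promoters of the same length. On either strand the share stayed at 86.8% for the members and was 36.3% for all promoters. The letters were chosen after the sequences had been read, so these shares are descriptions. Where a promoter held more than 1 match, as in PCDHB2, PCDHB4, PCDHGB4, PCDHGB5 and PCDHGC3 (5 members), the match nearest to the TSS that fits one of the longer versions given next was used for positions. The motif started between 133 and 13 bases before the TSS, with a median of 60. Longer versions that contain it differed by subfamily. TGTCGCT was present in 11 of 15 alpha genes (73.3%) and in 0.520% of all promoters. GGTGGCGCT was present in 13 of 16 beta genes (81.2%) and in 0.283% of all promoters. GNCGCTGTN was present in 17 of 22 gamma genes (77.3%) and in 1.57% of all promoters. The 7 members without GNCGCT were PCDHA9, PCDHAC2, PCDHB6, PCDHB8, PCDHGB7, PCDHGA12 and PCDHGC5.

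The sequences below show the motif, in capitals, for members that differed in their peaks. The first set holds beta genes with H3K27ac (PCDHB2, PCDHB9, PCDHB11 and PCDHB14), PCDHB10 with CTCF and H3K4me3 only, PCDHB13 with CTCF only, and PCDHB12 and PCDHB3 with no peak. All sequences are from hg19, 5′ to 3′ on the plus strand, and end before the TSS.
PCDHB2, chr5:140474119-140474168: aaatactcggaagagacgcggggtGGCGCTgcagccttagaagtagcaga
PCDHB9, chr5:140566638-140566687: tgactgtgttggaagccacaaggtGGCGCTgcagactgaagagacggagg
PCDHB11, chr5:140579093-140579142: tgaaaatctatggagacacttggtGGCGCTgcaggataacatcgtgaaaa
PCDHB14, chr5:140602825-140602874: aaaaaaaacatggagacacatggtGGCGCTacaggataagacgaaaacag
PCDHB10, chr5:140571862-140571911: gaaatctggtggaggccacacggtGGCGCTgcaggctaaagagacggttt
PCDHB13, chr5:140593427-140593476: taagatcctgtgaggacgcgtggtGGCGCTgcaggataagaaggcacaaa
PCDHB12, chr5:140588205-140588254: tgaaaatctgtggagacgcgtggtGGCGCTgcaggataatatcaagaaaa
PCDHB3, chr5:140479967-140480016: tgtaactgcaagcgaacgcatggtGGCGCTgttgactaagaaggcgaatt
Over these 50 bases PCDHB11 and PCDHB12 were identical at 44 positions, although PCDHB11 had 3 lists present and PCDHB12 had none. PCDHB2 was identical to its closest beta gene without peaks, PCDHB16, at 34 positions, PCDHB14 to PCDHB12 at 35 and PCDHB9 to PCDHB3 at 28. In all 4 cases the partner was picked as the closest of 5 candidates without peaks. The middle candidate was identical at 31 positions for PCDHB11, 28 for PCDHB2, 30 for PCDHB14 and 27 for PCDHB9.

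The second set gives alpha and gamma genes: PCDHA13, PCDHGB1, PCDHGB2 and PCDHGC3 with H3K27ac, PCDHA8 and PCDHGA2 with CTCF alone, and PCDHA12 and PCDHGB4 with no peak.
PCDHA13, chr5:140261637-140261686: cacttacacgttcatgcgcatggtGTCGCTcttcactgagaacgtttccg
PCDHA8, chr5:140220705-140220754: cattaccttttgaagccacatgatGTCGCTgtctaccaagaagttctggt
PCDHA12, chr5:140254819-140254868: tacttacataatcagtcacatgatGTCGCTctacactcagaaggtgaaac
PCDHGB1, chr5:140729582-140729631: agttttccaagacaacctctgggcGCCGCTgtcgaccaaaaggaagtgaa
PCDHGB2, chr5:140739478-140739527: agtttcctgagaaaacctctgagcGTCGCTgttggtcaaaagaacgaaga
PCDHGB4, chr5:140767174-140767223: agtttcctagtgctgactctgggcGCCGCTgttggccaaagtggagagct
PCDHGA2, chr5:140718260-140718309: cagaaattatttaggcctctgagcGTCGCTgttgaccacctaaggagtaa
PCDHGC3, chr5:140855437-140855486: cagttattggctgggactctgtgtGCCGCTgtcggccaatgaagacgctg
PCDHA13 and PCDHA12 were identical at 34 of 50 positions, PCDHGB1 and PCDHGB4 also at 34, and PCDHGB2 and PCDHGB4 at 31. PCDHGC3 and PCDHGC4, its only gamma C-type neighbour with the motif, were identical at 23. In each pair the first gene had H3K27ac, and the second was picked as the closest candidate with no peak of any list. The middle candidate was identical at 25 positions for PCDHA13, 29 for PCDHGB1 and 27 for PCDHGB2.

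Each TSS was read in a window of 1.5 kb on either side, and a peak counted when it shared at least 1 bp with the window. The smallest distance between neighbouring TSSs was 3374 bp, so no windows overlapped, and none of the 42 peaks in them fell into more than 1 window. CTCF was the most frequent of the lists. It was present at 18 of 53 members (34.0%), against 17.5% of all protein-coding TSS windows. H3K4me3 was present at 11 members (20.8%), against 62.0% of all windows. H3K27ac, which defines a candidate active promoter (cAP), was present at 8 members (15.1%), against 60.7%. Pol II was present at 4 members (7.55%), against 57.8%. No member had H3K4me1, which 58.7% of all windows had. No member had p300/CBP either, but only 0.788% of all windows did, so that count is near its background. No peak of any list was found at 33 members (62.3%), against 28.6% of all windows.

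**Figure D1:**
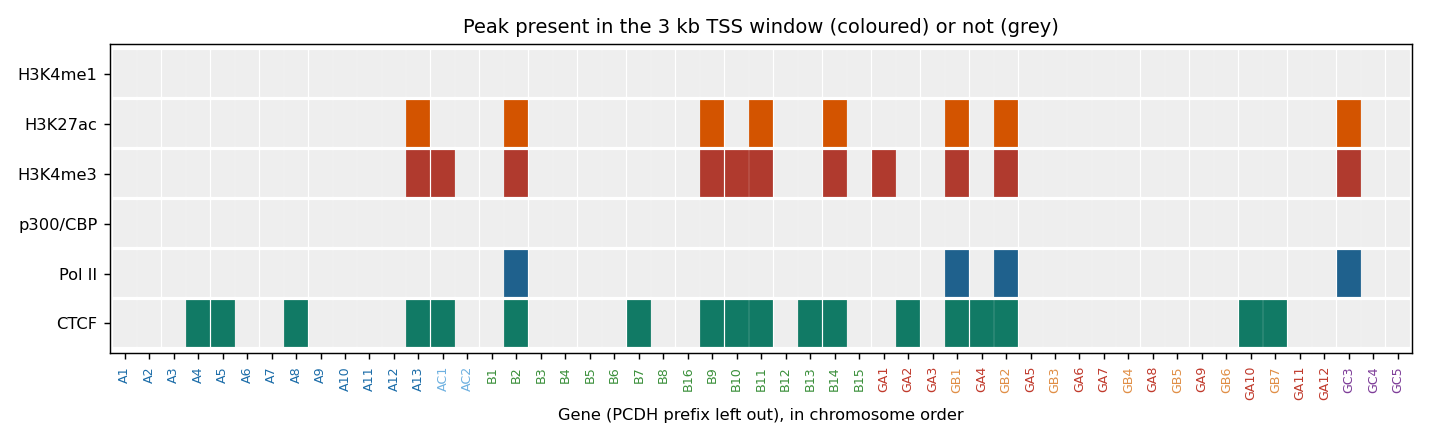
Presence of a peak of each list (rows) in the 3 kb TSS window of each of the 53 members (columns, in chromosome order, label colour by subfamily). Coloured cells mark a peak and grey cells none: CTCF fills 18 columns, H3K4me3 11, H3K27ac 8, Pol II 4, and H3K4me1 and p300/CBP none.

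The 8 cAPs were PCDHA13, PCDHB2, PCDHB9, PCDHB11, PCDHB14, PCDHGB1, PCDHGB2 and PCDHGC3. Thus 1 of 13 alternate alpha genes, 4 of 16 beta genes, 0 of 12 gamma A genes, 2 of 7 gamma B genes and 1 of 3 gamma C-type genes had H3K27ac, and neither alpha C-type gene did. All 8 also had H3K4me3, as did 97.7% of all windows with H3K27ac. A further 3 members had H3K4me3 and no H3K27ac, namely PCDHAC1, PCDHB10 and PCDHGA1. That is 5.66% of members, against 2.66% of all windows.

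PCDHB2, PCDHGB1 and PCDHGB2 had the most lists, 4 each: H3K27ac, H3K4me3, Pol II and CTCF. At PCDHB2 the CTCF peak ran from 140474001 to 140474301, the Pol II peak from 140474201 to 140474351, the H3K27ac peak from 140474251 to 140474601 and the H3K4me3 peak from 140474201 to 140474751. At PCDHGB1 the CTCF peak was 150 bp wide, the Pol II peak 200 bp, the H3K27ac peak 400 bp and the H3K4me3 peak 850 bp. At PCDHGB2 the widths were 300 bp for CTCF, 150 bp for Pol II, 750 bp for H3K27ac and 950 bp for H3K4me3, which gave it the widest H3K27ac peak of all members. The order along the gene was the same at these 3 promoters: CTCF was centred upstream of the TSS and Pol II just downstream. H3K27ac and then H3K4me3 were centred farther downstream. PCDHA13 and PCDHB11 also had H3K27ac nearer to the TSS than H3K4me3. At PCDHB9 both marks were centred at 141 bp and at PCDHB14 both at 161 bp. PCDHGC3 had the reverse order, with H3K4me3 centred at 118 bp and H3K27ac at 168 bp.

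PCDHGC3 was the only cAP without CTCF in its window. It had H3K27ac (200 bp, the narrowest among members), H3K4me3 (1000 bp, the widest) and Pol II (150 bp). The other C-type genes differed from it: PCDHAC1 had H3K4me3 and CTCF with both centres 292 bp downstream of the TSS, while PCDHAC2, PCDHGC4 and PCDHGC5 had no peak. PCDHA13 had H3K27ac, H3K4me3 and 2 CTCF peaks, the largest number of CTCF peaks at any member. PCDHB9, PCDHB11 and PCDHB14 had H3K27ac, H3K4me3 and CTCF but no Pol II peak. PCDHGA1 had an H3K4me3 peak of 300 bp and nothing else, and PCDHB10 had a 300 bp H3K4me3 peak beside a 300 bp CTCF peak.

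The cAPs of the cluster were set beside all cAPs of these cells. None of the 8 had H3K4me1, against 85.3% of all 12254 windows with H3K27ac. The authors kept H3K4me1 runs of at least 250 bp but H3K27ac runs of at least 150 bp, so a shorter H3K4me1 stretch would not be listed. Windows with H3K27ac and no H3K4me1 made up 15.1% of members and 8.94% of all windows. Pol II was present at 4 of 8, against 91.9%. CTCF was present at 7 of 8 (87.5%), against 24.4%. Among protocadherins outside the clusters with H3K27ac, 4 of 6 also lacked H3K4me1, and 3 of the 6 had Pol II. In another gene family, zinc finger genes on chromosome 19 with H3K27ac, 72 of 204 lacked H3K4me1. Of the 45 members without H3K27ac, 11 had CTCF (24.4%), against 6.79% of all windows without H3K27ac.

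The peaks themselves were narrow. The 8 H3K27ac peaks were 200 to 750 bp wide with a median of 275 bp, and those in the windows of other protein-coding genes had a median of 1850 bp (quartiles 1050 and 2750 bp). The 11 H3K4me3 peaks were 300 to 1000 bp wide with a median of 550 bp, against a median of 2000 bp at other genes. The 4 Pol II peaks were 150 to 200 bp wide, against a median of 1000 bp, and 4.76% of the other genes' Pol II peaks were no wider than the widest of these. The 19 CTCF peaks were 100 to 400 bp wide with a median of 250 bp, against a median of 300 bp at other genes. No member's H3K27ac, H3K4me3 or Pol II peak was as wide as the median of its whole list (1300, 1150 and 850 bp), so a filter at that width would leave 0 members with any of the 3. Among the 1131 windows of all genes whose H3K27ac peaks were no wider than 750 bp, 75.2% had H3K4me1, 58.8% had Pol II and 23.2% had CTCF. Of the 8 members with H3K27ac, 0 had H3K4me1, 4 had Pol II and 7 had CTCF. The cut of 750 bp was the widest member peak, far above the members' median of 275 bp, so these windows were not matched in width. The part of peak width in these counts was not tested.

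**Figure D2:**
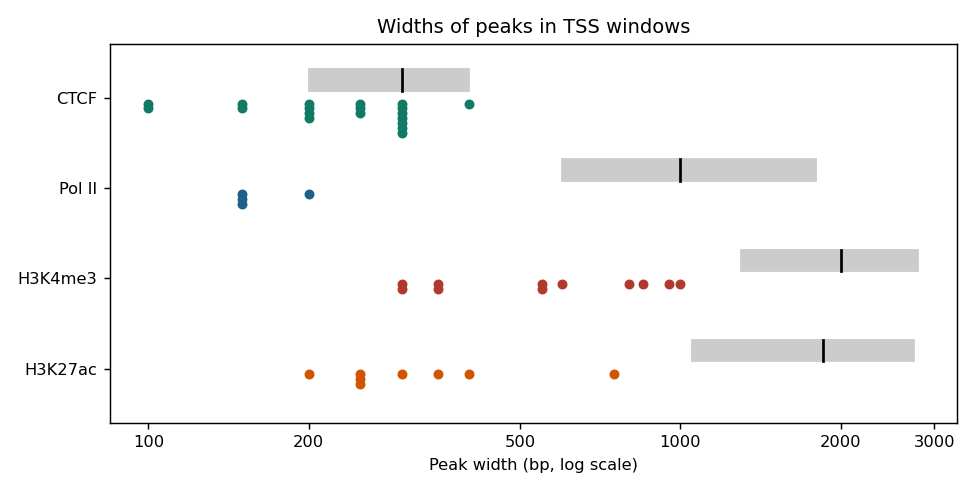
Width in bp (log axis) of each H3K4me3, H3K27ac, Pol II and CTCF peak in the members' windows (points), with the quartiles (grey bar) and the median (black line) of the peaks in the windows of other protein-coding genes. All points of H3K27ac, H3K4me3 and Pol II lie to the left of the grey bars, whereas those of CTCF reach from 100 bp to 400 bp and overlap it.

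CTCF was found at 4 of 13 alternate alpha genes, 1 of 2 alpha C-type genes, 7 of 16 beta genes, 3 of 12 gamma A genes and 3 of 7 gamma B genes, and at 0 of 3 gamma C-type genes. In 9 members it stood with no histone mark: PCDHA4, PCDHA5, PCDHA8, PCDHB7, PCDHB13, PCDHGA2, PCDHGA4, PCDHGA10 and PCDHGB7. That is 17.0% of members, against 1.44% of all protein-coding windows. Conversely 9 of the 11 members with H3K4me3 had CTCF, the exceptions being PCDHGA1 and PCDHGC3. The 7 cAPs with CTCF counted above are among these 9, so the 2 counts are not independent. CTCF was present in 17.5% of all protein-coding windows, and its share among all windows with H3K4me3 was not counted.

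The positions of the peaks were regular. Peak edges lie on bins of 50 bp, so smaller differences between the distances below are not resolved. In the beta genes the CTCF peak was centred between 74 bp (PCDHB7) and 25 bp (PCDHB10) before the TSS. In the gamma A genes it was centred 3 bp before the TSS at PCDHGA10, the nearest, and 87 bp before it at PCDHGA4, the farthest. In the gamma B genes the distances were 40 bp at PCDHGB1, 60 bp at PCDHGB2 and 93 bp at PCDHGB7, again all upstream. The alternate alpha genes were split: PCDHA8 and PCDHA13 had a centre 71 bp and 8 bp before the TSS, and PCDHA4, PCDHA5 and PCDHA13 had a centre 598 bp, 678 bp and 592 bp after it. H3K27ac was centred 141 to 315 bp after the TSS in all 8 cAPs, H3K4me3 70 to 465 bp after it, and Pol II 77 to 115 bp after it.

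**Figure D3:**
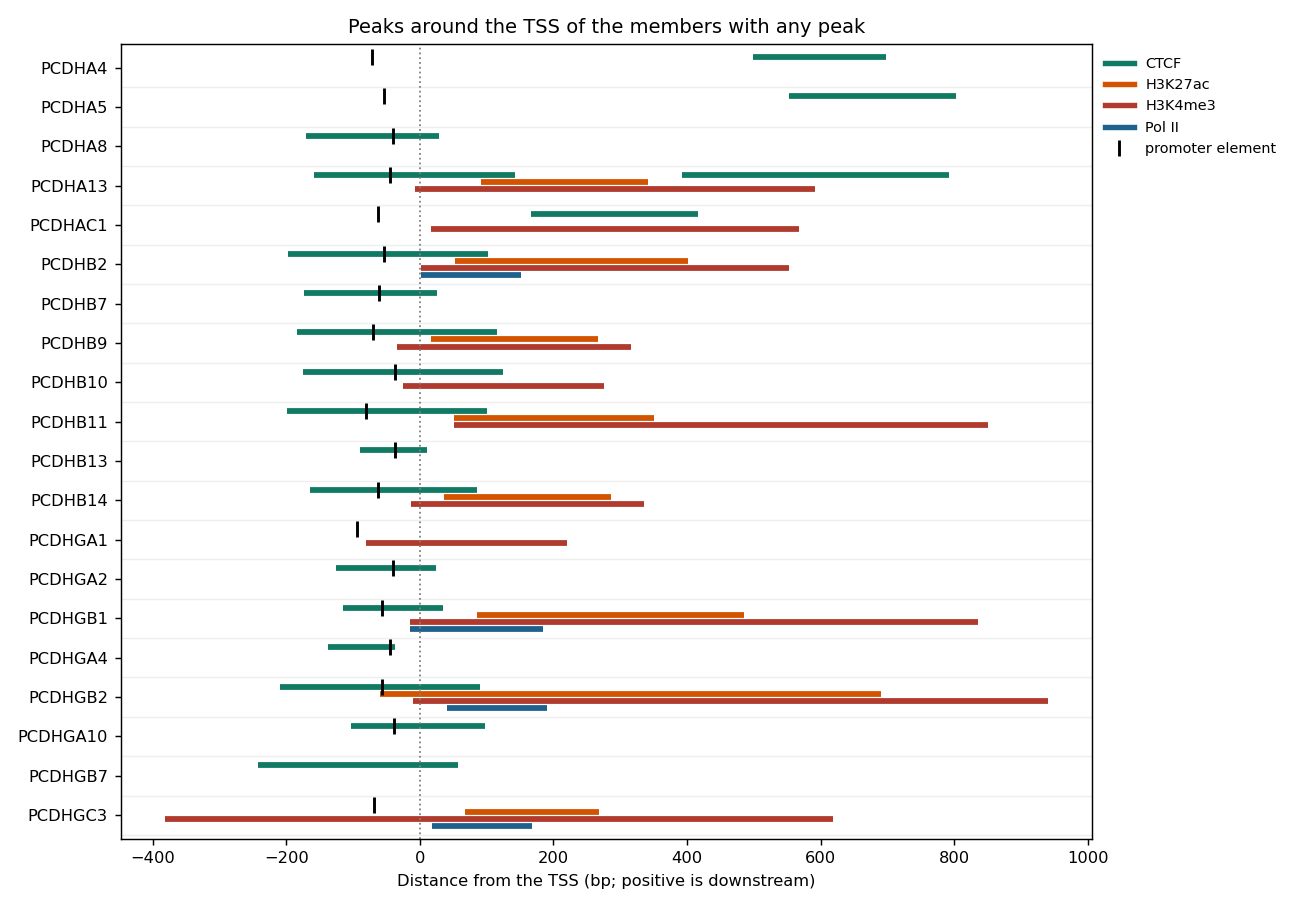
Peaks of CTCF, H3K27ac, H3K4me3 and Pol II (horizontal bars) around the TSS (dotted line, distance in bp) of the 20 members with any peak, with the GNCGCT motif as a black tick. CTCF bars cover the tick in 14 members and lie downstream of the TSS in PCDHA4, PCDHA5, PCDHAC1 and, for its second peak, PCDHA13, and the bars of the other lists lie mostly downstream of the TSS.

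In 14 of the 18 members with CTCF, the CTCF peak covered the promoter motif shown above. The exceptions were PCDHA4, PCDHA5 and PCDHAC1, whose peak lay in the exon, and PCDHGB7, which lacks the letters. Promoter motifs and the CTCF peaks over them both lay close to the TSS, and such coverage at other genes was not counted. The motif alone did not separate members with CTCF from members without: it was present in 17 of 18 members with a CTCF peak and in 29 of 35 without. With 1 match taken per promoter, 7 of 12 GGCGCT matches (all in beta genes), 5 of 20 GTCGCT matches and 2 of 13 GCCGCT matches were covered by a CTCF peak, and the only GACGCT match taken, at PCDHA7, was not. PCDHB4 holds both GGTGGCGCT and, nearer to its TSS, the GTCGCT that was taken, and had no CTCF peak.

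The exonic peaks held a second set of letters, which can overlap GNCGCT. CNAGNNGGC, letters from the core of the CTCF consensus that were chosen with these data in view, was found on either strand in 36.7% of all 39596 CTCF peaks and in 12.3% of stretches of the same length that begin 1000 bp past each peak. In the cluster span 8 of 25 CTCF peaks held it. At PCDHA4, PCDHA5 and PCDHA13 the motif lay 579, 619 and 604 bases after the TSS, inside the coding part of the variable exon. At PCDHAC1 all 3 matches lay between the TSS and the coding start. At PCDHB7 and PCDHB9 the match overlapped the promoter motif. The sequences below have CNAGNNGGC in capitals and are shown because their strand differs between promoters and downstream sites.
PCDHA4 exon, chr5:140187220-140187256, plus strand: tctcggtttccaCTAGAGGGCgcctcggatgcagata
PCDHA5 exon, chr5:140201805-140201841, plus strand: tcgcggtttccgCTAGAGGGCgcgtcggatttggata
PCDHA13 exon, chr5:140262301-140262337, plus strand: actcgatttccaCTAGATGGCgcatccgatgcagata
PCDHB7 promoter, chr5:140552143-140552179, plus strand: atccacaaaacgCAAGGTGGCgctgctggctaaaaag
PCDHB9 promoter, chr5:140566644-140566680, plus strand: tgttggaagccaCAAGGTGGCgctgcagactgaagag
between PCDHAC2 and PCDHB1, chr5:140420941-140420977, minus strand: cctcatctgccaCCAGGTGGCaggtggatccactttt
downstream of the gamma genes, chr5:140943946-140943982, minus strand: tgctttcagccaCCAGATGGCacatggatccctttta
downstream of the gamma genes, chr5:140947249-140947285, minus strand: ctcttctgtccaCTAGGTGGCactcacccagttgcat
Of the 19 CTCF peaks in members' windows, 6 held the motif on the plus strand, which is the strand of the genes, and 0 on the minus strand. Of the 13 CTCF peaks elsewhere in the span and within 100 kb of it, 0 held it on the plus strand and 4 on the minus strand. These 4 were the second of 2 peaks between PCDHAC2 and PCDHB1, the peak over gamma constant exon 3 and 2 peaks of the right flank. A match is a description of letters in a peak and was not tested as a binding site.

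The longest run of neighbours without any peak held 9 genes, from PCDHGA5 to PCDHGB6, and runs of 4 went from PCDHA9 to PCDHA12 and from PCDHB3 to PCDHB6. PCDHB9, PCDHB10 and PCDHB11 were neighbours that all had CTCF and H3K4me3, and PCDHGB1, PCDHGA4 and PCDHGB2 were neighbours that all had CTCF. PCDHGA4, which lies between PCDHGB1 and PCDHGB2, had a CTCF peak of 100 bp and no mark.

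The whole span contained 25 CTCF, 18 H3K4me3, 14 H3K27ac, 8 Pol II, 6 H3K4me1 and 0 p300/CBP peaks, of which 19, 11, 8, 4, 0 and 0, respectively, were in members' windows. CTCF covered 0.894% of the span and 0.389% of the genome, and its density was 34.4 peaks per Mb in the span and 12.8 per Mb in the genome. H3K4me3 covered 2.02% of the span (genome 1.23%), H3K27ac 1.01% (genome 2.29%), Pol II 1.18% (genome 1.39%) and H3K4me1 1.12% (genome 5.42%). The 3 stretches that hold the variable exons, 181.841 kb for alpha, 197.005 kb for beta and 161.568 kb for gamma, had 0 H3K4me1 peaks. Pol II covered 0%, 0.0761% and 0.309% of these stretches, respectively. Of the 8594 bp that Pol II covered in the span, 6200 bp lay between the beta and gamma genes.

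**Figure D4:**
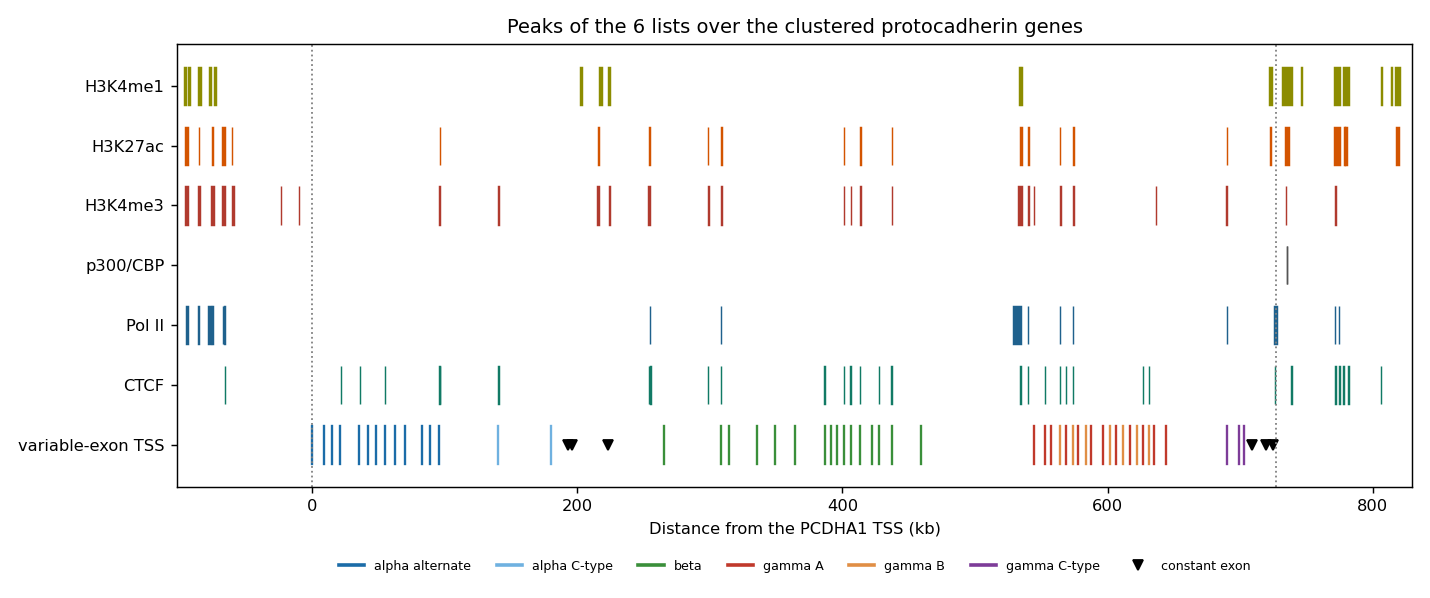
Peaks of the 6 lists (rows) over the cluster span, between dotted lines, and 100 kb on either side, with the TSSs of the 53 members coloured by subfamily and the constant exons as triangles, against distance from the PCDHA1 TSS in kb. H3K4me1 peaks lie in the left flank, near the alpha constant exons, between beta and gamma, and from the gamma constant exons on, and the 2 p300/CBP peaks lie in the right flank.

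The H3K4me1 peaks of the span lay around the constant exons and around TAF7. Between PCDHAC2 and PCDHB1 there were 3, and the peak from 140389151 to 140390301 overlapped alpha constant exon 3 (140389212 to 140391932), as did an H3K4me3 peak of 600 bp. The second of the 3 was 2700 bp wide and lay beside an H3K27ac peak of 550 bp and an H3K4me3 peak of 1200 bp. Farther downstream, an H3K27ac peak from 140420051 to 140420651 lay between 2 CTCF peaks (140419851 to 140420101 and 140420751 to 140421101), with Pol II and H3K4me3 and without H3K4me1, at the TSS of the long noncoding RNA ENSG00000288892. The CTCF peaks were centred 254.251 and 255.201 kb from the PCDHA1 TSS, downstream of the alpha constant exons. The next peaks in the span were CTCF from 140464051 to 140464301, H3K27ac from 140464301 to 140464551 and H3K4me3 from 140464151 to 140464801, and lay 2253 bp or more from any annotated gene start.

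In the gamma constant part, an H3K4me1 peak of 2200 bp and an H3K27ac peak of 1250 bp lay between constant exons 2 and 3. Gamma constant exon 3 (140890514 to 140892542) was overlapped by a Pol II peak from 140891051 to 140893351, the only Pol II peak over a constant exon, and by a CTCF peak from 140891851 to 140892301. Just past the gamma genes, an H3K4me1 peak of 7200 bp (140897501 to 140904701) contained an H3K27ac peak of 2750 bp and the only 2 p300/CBP peaks of the region, 100 bp each and 50 bp apart. The nearest member promoter to them was that of PCDHGC5, 32153 bp away. The right flank was covered to 22.1% by H3K4me1 and to 11.2% by H3K27ac.

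Protein-coding genes that are no members had 4 TSSs inside the span. TAF7, which encodes a subunit of the general transcription factor TFIID, lies between beta and gamma and had all lists but p300/CBP, with a Pol II peak of 6000 bp. SLC25A2, a mitochondrial carrier gene, and AC005609.1 had no peak. ENSG00000279983 starts 29 bp from PCDHB14, so its window held the same CTCF, H3K27ac and H3K4me3 peaks, and the peaks cannot be assigned to either gene. Starts of noncoding genes also lay near peaks of other cAPs: the lncRNA ENSG00000278901 starts inside the H3K4me3 peak and the downstream CTCF peak of PCDHA13, and the lncRNA ENSG00000280026 starts inside the H3K4me3 peak of PCDHGB1 and 79 bp from its H3K27ac peak, so these peaks cannot be assigned to 1 gene either. In the left flank HARS1, HARS2 and ZMAT2 all had H3K4me1, H3K27ac, H3K4me3 and Pol II.

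Sequence composition did not separate the marked members. The GC content of the 3 kb windows had a median of 41.7% (37.7% to 54.9%) over the members and 52.8% over the other protein-coding genes. The 5 C-type windows were the richest in GC, at 48.8% to 54.9%. The ratio of observed to expected CpGs had a median of 0.55 over members and 0.56 over other genes. It ranged from 0.62 to 0.81 in alternate alpha, 0.58 to 0.74 in alpha C-type and 0.30 to 0.56 in beta genes. The ranges were 0.30 to 0.75 in gamma A, 0.43 to 0.61 in gamma B and 0.22 to 0.69 in gamma C-type genes. Both alpha subfamilies thus lay above beta, and alternate alpha also above gamma B, while the other pairs of subfamilies overlapped. Members with H3K27ac had a median of 0.47 and those without 0.56, with ranges that overlapped (0.30 to 0.70 and 0.22 to 0.81). Both groups pool subfamilies that differ in this ratio.

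The genes resemble each other, and only uniquely mapped reads entered the lists, so the share of 31-base words of each window that occur once in the genome was counted. It had a median of 95.1% over members and 94.3% over 1005 other windows. Members with CTCF had a median of 93.7% (66.3% to 100%) and those without 95.2% (66.0% to 100%). The lowest values were 66.0% at PCDHB8, 66.3% at PCDHB13 and 71.9% at PCDHA9. PCDHB13 had a CTCF peak, and PCDHB8 and PCDHA9 had no peak. Members with H3K27ac had a median of 96.6% and those without 94.3%. The part of mappability in the absence of peaks was not tested.

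Of 39 HOX genes, developmental transcription factors, 6 had H3K27ac (15.4%), close to the share of the protocadherins, and the same number had H3K4me1, while 3 had CTCF (7.69%). Of 249 zinc finger genes on chromosome 19, 204 had H3K27ac (81.9%) and 34 had CTCF (13.7%). Of 177 olfactory receptor genes on chromosome 11, another family expressed by choice in neurons, 1 had H3K27ac (0.565%) and 2 had CTCF (1.13%). CTCF with no histone mark was seen at 2 HOX genes (5.13%) and at 0 zinc finger and 0 olfactory receptor genes, against 17.0% of the clustered protocadherins.

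**Figure D5:**
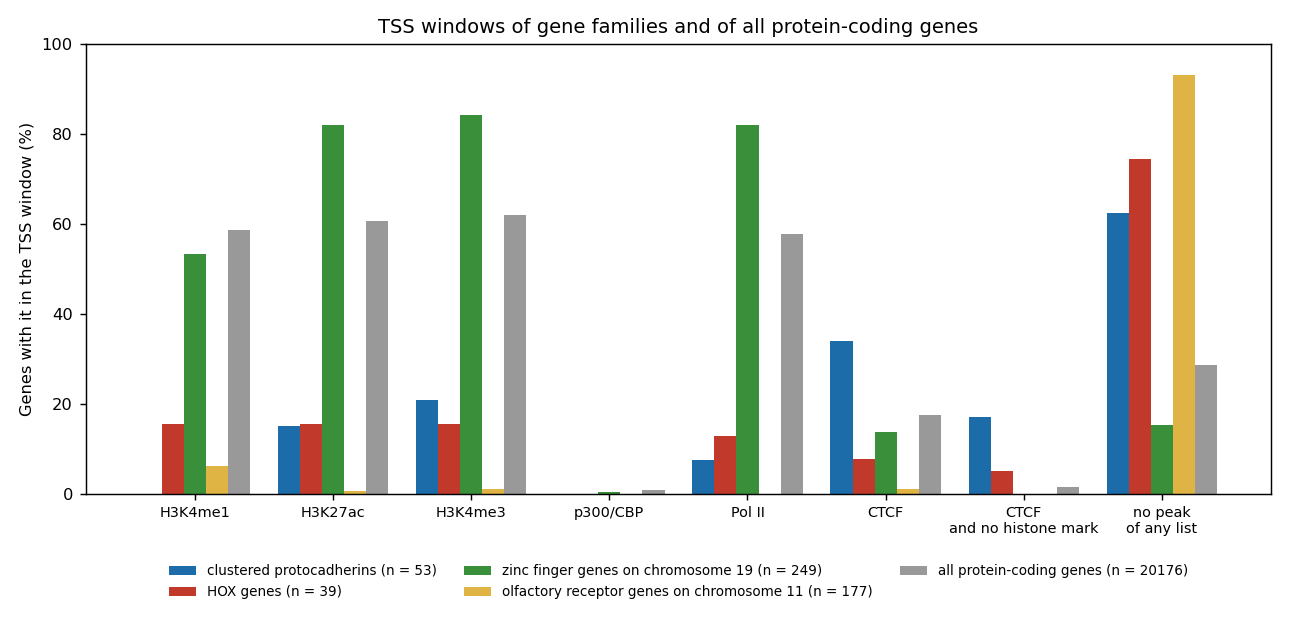
Share of genes (%) with each list, with CTCF and no histone mark, and with no peak of any list in the TSS window, for the clustered protocadherins, HOX genes, zinc finger genes on chromosome 19, olfactory receptor genes on chromosome 11 and all protein-coding genes (bars). The protocadherin bar is the highest of the 5 for CTCF (34.0%) and for CTCF without a histone mark (17.0%).

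Of 12 protocadherins outside the clusters, 6 had H3K27ac, 7 had H3K4me3, 3 had CTCF and 2 had H3K4me1. The shares of all protein-coding windows were 60.7%, 62.0%, 17.5% and 58.7%, respectively. PCDH1, PCDH7 and PCDH9 were among those with H3K27ac, and PCDH8, PCDH10 and PCDH11X among those without. All 17 genes listed as regulators of the clusters had H3K27ac and H3K4me3, and 16 had Pol II, against 57.8% of all windows. The list begins with CTCF, RAD21 and SMC1A, a DNA-binding factor and cohesin subunits, and none of its genes lacked H3K27ac. The cell line was checked by markers: VIM, CD44, EGFR and FOSL1 had H3K27ac, 4 of 4. Of the luminal or epithelial genes ESR1, PGR, GATA3, CDH1 and EPCAM 0 of 5 had it, while PGR had H3K4me3.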

How the data were processed

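The samples were 13 ChIP-seq libraries of MDA-MB-231 cells. The authors aligned reads to hg19 with BWA-backtrack (the submitters' processing notes name Bowtie2), used PASHA to turn unique alignments into a signal over 50-bp bins, merged replicates and called peaks by thresholding. The threshold and the largest gap joined were 30 and 1000 bp for H3K4me1, 30 and 500 bp for H3K4me3, 50 and 500 bp for H3K27ac, 60 and 50 bp for p300/CBP, 50 and 800 bp for Pol II and 50 and 50 bp for CTCF. The shortest run kept was 250 bp for H3K4me1, 150 bp for H3K4me3 and H3K27ac, 100 bp for Pol II and 50 bp for p300/CBP and CTCF. By the names of the lists, scaling preceded calling for all targets but CTCF, and background subtraction for p300/CBP and the 3 histone marks. The deposited files hold peak starts and ends in base pairs, with no value per peak and no sequencing depth. Each end is the first base after the peak and is printed as listed. The 2 input libraries were not analysed here.

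TSSs were those of canonical transcripts in GENCODE release 44 on GRCh37. The tag was absent from 282 of 20176 genes, PCDHA6 and PCDHA7 among them, and their APPRIS principal transcript or, without one, another basic transcript was used. Positions and letters were read with Python 3.11.15, NumPy 2.4.6 and pysam 0.24.0, and simulated peaks were used to test the code that reads overlaps (7200 comparisons, 0 wrong). No column was left unmapped (0). Every member could be named, and in full those with H3K27ac or H3K4me3, the extremes of each subfamily, the C-type genes and non-members inside the span; related genes were named by list order. The members and lists were chosen with earlier results of these data known, so no test was made. Alternatives changed the overlap, the window, the TSS set, the width of the peaks kept, the flank and the joining of peaks.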

Additional observations from a re-analysis of the deposited data

How the results depend on the processing

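Of 90 alternative values for 23 counts, shares and distances, 69 stayed within a factor of 1.5 of the reported value or did not move, and 21 moved further. These values are not all separate checks. Members with H3K27ac and candidate active promoters are the same count entered under both names. The counts of members with H3K4me1 and with p300/CBP were 0 in every setting. Dropping every peak narrower than its own list's median width left 7 members with CTCF. It left 0 with H3K27ac (and so 0 candidate active promoters), 0 with H3K4me3 and 0 with Pol II, which followed from the widths given above. The lists hold no peak height, so this filter cannot stand for a stricter threshold. The filter also kept 7 members with CTCF and no histone mark in place of 9. Only PCDHGB7 (1 member) was in both sets, with 8 lost and 6 gained. In the span plus 100 kb it left 17 CTCF, 8 H3K27ac, 7 H3K4me3, 4 Pol II and 0 p300/CBP peaks, and in the span it left 0.199% covered by H3K27ac, 0.784% by H3K4me3 and 0.516% by CTCF. The median distance from a TSS to the nearest CTCF peak centre, 5687 bp, became 14806 bp. A window of 5 kb on either side, which reaches into neighbouring genes, gave 13 members with H3K27ac (candidate active promoters) and 7 with Pol II. Covering the span plus 100 kb in place of the span gave 4.18% for H3K4me1, 2.73% for H3K27ac and 0.0216% for p300/CBP. Joining peaks less than 500 bp apart made the 2 p300/CBP peaks 1. The causes of the other changes were not tested.

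With all TSSs of basic transcripts PCDHGA11 gained H3K4me3 (12 members). Leaving out PCDHA6 and PCDHA7, a choice made after seeing the data, left 31 members with no peak and changed no other count. No paired analysis was possible because merging preceded peak calling, so no replicate could be left out and their spread is unknown. Without a value per peak or a depth, a promoter without a peak cannot be told from one below the authors' threshold.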

Other observations

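The 100 kb before PCDHA1 also held marks at noncoding genes of the vault RNA family, which the comparisons above do not use. An H3K27ac peak of 2150 bp and an H3K4me3 peak of 2350 bp covered the start of VTRNA1-2, with a CTCF peak of 250 bp, the only CTCF peak of that flank, 1341 bp from it. An H3K4me3 peak of 1350 bp covered the start of VTRNA1-3, beside an H3K27ac peak of 250 bp. Closer to the cluster, an H3K4me3 peak of 450 bp lay 9625 bp before the TSS of PCDHA1, with no other list present there, and an H3K4me3 peak of 200 bp lay 1583 bp after the TSS of PCDHGA11, just outside its window.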
